A study of Mus musculus with 10 samples.

Results

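The genes described here encode the proteins of the cytosolic ribosome, measured in skin wounds of diabetic mice that were given a microRNA mimic. Members were chosen by symbol alone: Rpl or Rps followed by digits and at most a letter, plus Rplp0, Rplp1, Rplp2 and Rpsa, without pseudogenes named -ps and without the Rps6k kinases. A member also needed a feature of the array that the platform annotation pairs with a single gene, and the feature with the highest mean was kept. This gave 39 members of 30743 genes with such a feature. Of 81 protein-coding mouse genes in RefSeq whose symbols fit the rule, 37 were members, 37 had features shared with other genes and 7 had no feature named here. The remaining 2 members, Rpl6l and Rps4l, are pseudogenes in RefSeq. A gene was tested if its mean lay above 4.17 on the log2 scale, which 37 members and 17635 genes in all did. Rpl3l and Rpl10l lay below this level.

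All 10 mice were male db/db [BKS(D)-Leprdb/JOrlRj)] animals on the C57BL/6 background, 11 weeks old, so the controls were diabetic too and wounds of non-diabetic mice were not analysed here. The leptin receptor gene is mutated in all cells of db/db mice, which are obese as well as hyperglycaemic. Each mouse had 2 full-thickness wounds of 4 mm on the back, and each wound edge was injected at 4 points with 0.5 nmol of mimic in 100 µl with a carrier right after wounding. The 5 mice of the first group received miR-132 mimic and the 5 of the second control mimic. Both groups were sampled at the wound edge 6 days after injury, with 150 ng of total RNA per array, and the labels do not say whether a sample holds 1 or both wounds of a mouse. Values are signals on the log2 scale, and every difference is miR-132 minus control.

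A ribosome has a small subunit, which reads the messenger RNA, and a large subunit, which joins the amino acids. Its proteins are made in matched amounts, and most of their mRNAs start with a run of pyrimidines, the terminal oligopyrimidine tract, through which the kinase complex mTORC1 and the protein Larp1 set their translation. In a healing wound, dividing keratinocytes and fibroblasts need new ribosomes. Translation of these mRNAs can change while their amounts do not, and an array measures amounts only.

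The mature microRNA supplied to the treated wounds pairs with its targets through bases 2 to 8, its seed, which is shown in capitals because it decides the targets. miR-212, its neighbour on mouse chromosome 11, carries the same seed AACAGUC. Sequences are from RefSeq, build GRCm38.p6, with the mature miR-132 at chr11:75173723-75173744 and miR-212 at chr11:75173443-75173464, both on the plus strand.
mmu-miR-132-3p: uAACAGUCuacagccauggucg
mmu-miR-212-3p: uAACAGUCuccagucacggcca

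Pyrimidine runs were looked for at the annotated start sites of the members. The start region was in RefSeq for 32 of the 39 members. A run of at least 8 C or T bases touching the window from 10 bases before to 10 after a start was present in 14 of them (43.8%), against 4259 of 27025 genes (15.8%). The run held the start base itself in 8 members (25%), against 4.22% of all genes. Runs were read on the strand of the gene, and where a gene has several annotated starts the one with the longest run was taken. To show what such a run looks like, 5 of those that hold the start base are printed in 30 bases, from 18 before the annotated start to 12 from it on, with the run in capitals. Rpl7a lies at chr2:26910789-26910818 (plus strand), Rpl35 at chr2:39005120-39005149 (minus), Rps10 at chr17:27635233-27635262 (minus), Rps18 at chr17:33955654-33955683 (minus) and Rpl32l at chr10:20208421-20208450 (plus). A run is a description of these letters, and a gene without one in this window may start elsewhere.
Rpl7a: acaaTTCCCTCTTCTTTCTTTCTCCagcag
Rpl35: agtcggccccgCCCTTTCCTCTTTCTCTCg
Rps10: gctgcgccgcgcacgCCCCTTCCTTTCCag
Rps18: ttatacgtcacttccgCTCTCTCTTCCaca
Rpl32l: ataaaataaaatgaccagCTTCTTCCTTgg

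Skin identity was present on every array. The 9 measured basal and wound keratinocyte markers averaged 12.52 to 13.69 per array and the 7 fibroblast markers 14.45 to 15.49, with 0 of these markers below the level filter. The spread of signal between the 10th and 90th percentiles was narrowest on miR-132 replicate 2, at 4.41, and next on miR-132 replicate 5, at 4.63, against 4.81 to 5.03 on the control arrays. The mean of the 4 hybridisation spike-ins was 10.57 to 10.98 with miR-132 and 10.43 to 10.61 in controls. On miR-132 replicates 3, 4 and 5 it was 10.98, 10.89 and 10.95, above every control, and on replicates 1 and 2 it was 10.61 and 10.57. As a covariate the spike-ins therefore go partly with the group. Differences fitted with them lean on miR-132 replicates 1 and 2 and cannot be fully separated from the covariate. Differences that turn on replicate 2 are given with and without it.

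Ribosomal protein mRNAs averaged slightly lower in miR-132 wounds, by an amount that came mostly from miR-132 replicate 2. Of the 37 tested members, 30 had a lower mean, 6 a higher mean and 1, Rps4x, the same mean. Among all genes tested, 53.6% had a lower mean. The median difference was -0.11, or -0.12 over the 36 members that never reached the upper limit of the signal, against -0.02 over all genes tested. Without miR-132 replicate 2 there were 20 lower and 15 higher, and the median was -0.01, against 0.01 for all genes. In that setting 47% of all genes averaged lower. Limma's moderated test with Benjamini-Hochberg adjustment over all genes called 0 members, with a lowest adjusted p of 0.617. The background was the same, with 0 of 17635 genes called (0%). At an unadjusted p under 0.05 stood 1 member, Rpl8, against 8.09% of all genes. It was on the lower side, where 5.61% of all genes stood, and 0 members were on the higher side, against 2.47%. On the lower side at that p there were 0 members without miR-132 replicate 2 (3.71% of all genes), 2 after a further quantile normalization (3.27%), 3 without miR-132 replicate 4 (5.23%) and 5 with the hybridisation spike-ins as a covariate (6.18%). The groups overlapped for all 37 members, while they did not overlap for 0.93% of all genes. The labels count 5 mice per group, so these p-values measure the spread between mice together with that of the assay.

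Most differences were small. Over the 37 members they ran from -0.56 to 0.26, and 25 of 37 lay within 0.2 of 0. The moderated standard error (SE) had a median of 0.13 and ranged from 0.02 to 0.35. The 95% interval lay wholly within 0.5 of 0 for 23 members and reached past it for 14. It spanned 0 for 36 members, all except Rpl8. The counts within 0.2 and within 0.5 of 0 include the 6 members that repeat 1 value on at least 7 arrays. Among these is Rpl41, which stood at the upper limit of the signal on 9 arrays. Whether their small differences and narrow intervals reflect precision was not tested. In bulk tissue, fewer cells rich in ribosomes and less ribosomal mRNA per cell cannot be told apart.

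**Figure D1:**
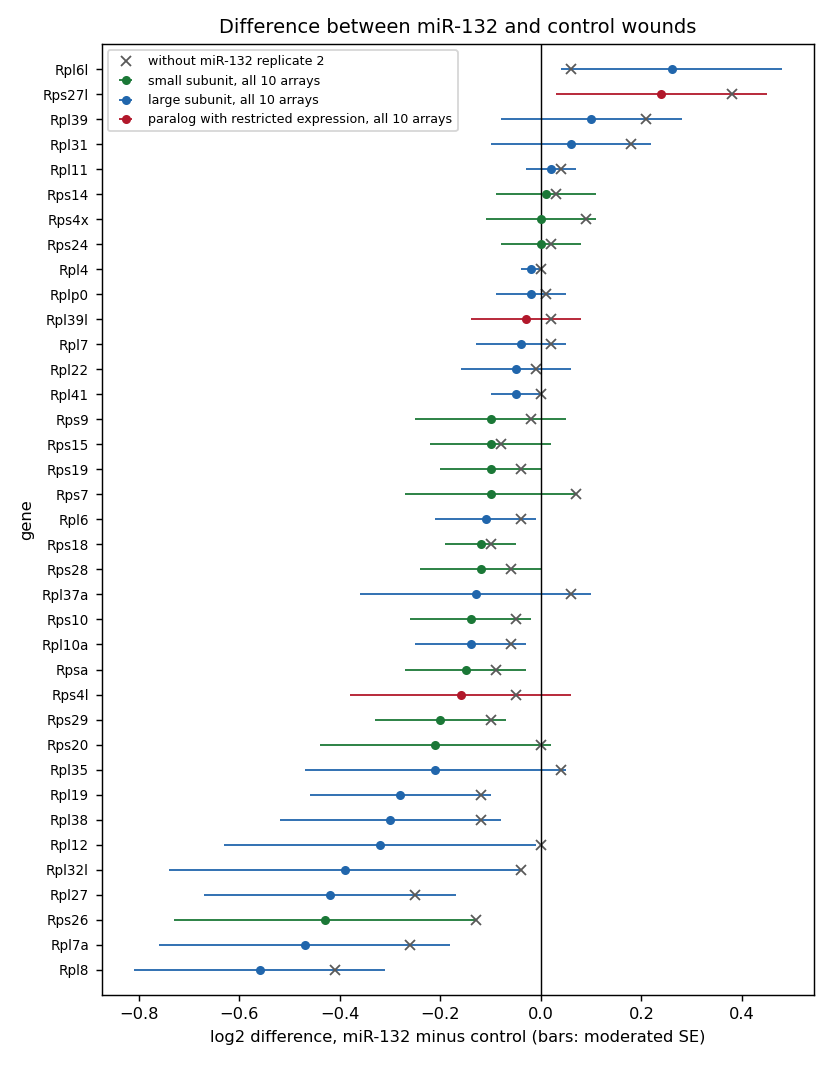
Log2 differences of the 37 tested ribosomal protein genes, treated minus control wounds. Points are means over 5 arrays per group with all 10 arrays, bars are the moderated SE, colours give the subunit or paralog class, and crosses are the differences without miR-132 replicate 2. Points run from -0.56 for Rpl8 to 0.26 for Rpl6l, and for most genes in the lower part of the plot the cross lies nearer to 0 than the point.

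Among proteins of the small subunit, 12 of 14 tested members averaged lower and 1 higher, with a median difference of -0.11. Rps26, which lines the channel through which mRNA leaves, showed the greatest difference in this class. Its signal was 15.90, 14.34, 15.91, 16.07 and 15.54 on miR-132 replicates 1 to 5, and 16.33, 15.90, 15.90, 15.90 and 15.90 on control replicates 1 to 5. All values except the lowest, miR-132 replicate 2, and the highest, control replicate 1, lay between 15.54 and 16.07. The difference was -0.43 ± 0.30 (SE, n = 5 per group, limma's unadjusted p of 0.176 and adjusted p of 0.717). It was -0.13 without replicate 2 and -0.91 with the hybridisation spike-ins as a covariate.

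Rps29 and Rps18, both in the head of the small subunit, had smaller differences. Rps29 measured 14.06, 13.54, 13.88, 14.19 and 13.97 with miR-132 and 14.36, 14.11, 14.02, 14.06 and 14.07 in controls, a difference of -0.20 ± 0.13 (SE), which was -0.10 without replicate 2 and -0.03 after a further quantile normalization. Rps18 measured 6.44, 6.34, 6.44, 6.44 and 6.28 with miR-132 and 6.72, 6.44, 6.48, 6.44 and 6.44 in controls, a difference of -0.12 ± 0.07 (SE). Control replicate 1 was the highest array for both genes. Rps18 is among the few members for which replicate 2 was not the lowest array, since replicate 5 was lower.

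Rpsa, a ribosomal protein also known as a laminin receptor, had 5 of 5 treated arrays under the control mean. It measured 12.60, 12.26, 12.60, 12.60 and 12.47 with miR-132 and 12.96, 12.60, 12.54, 12.60 and 12.60 in controls. The same value, 12.60, stood on 6 arrays spread over both groups, and the control mean of 12.66 was above it through replicate 1. The difference was -0.15 ± 0.12 (SE). It was -0.09 without miR-132 replicate 2, and turned to 0.01 after a further quantile normalization. Rpl8, Rpl10a and Rps18 were the other members with 5 of 5 arrays below the control mean, 4 members in all against 9.53% of all genes.

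Rps19, mutated in many patients with Diamond-Blackfan anaemia, measured 6.19, 5.90, 6.17, 6.41 and 6.13 with miR-132 and 6.46, 6.21, 6.22, 6.21 and 6.20 in controls. Its difference was -0.10 ± 0.10 (SE), and -0.04 without replicate 2. Rps14 measured 5.49 to 5.90 with miR-132 and 5.49 to 5.86 in controls, with a difference of 0.01 ± 0.10 (SE), the one member of this class with a higher mean. Rps4x, on the X chromosome, averaged 13.31 in both groups, with miR-132 replicate 2 at 12.97 and all other arrays from 13.25 to 13.49. Its difference was 0.09 without replicate 2. Rps20 (-0.21), Rps10 (-0.14), Rps28 (-0.12), Rps9 (-0.10), Rps15 (-0.10), Rps7 (-0.10) and Rps24 (-0.00) completed the class, each with a 95% interval that spanned 0. Without replicate 2 they were at -0.00, -0.05, -0.06, -0.02, -0.08, 0.07 and 0.02, so that Rps7 and Rps24 changed sign.

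Among proteins of the large subunit, 16 of 20 tested members averaged lower and 4 higher, with a median difference of -0.12. Rpl8, which lies close to the centre where peptide bonds form, was the member with the greatest difference and the smallest p. It measured 12.88, 12.30, 13.30, 13.33 and 12.71 with miR-132, and 14.09, 13.35, 12.98, 13.49 and 13.43 in controls. The 5 miR-132 arrays were all below the control mean of 13.47, and control replicate 3 lay within their range. The difference was -0.56 ± 0.25 (SE, n = 5 per group), 1.48-fold lower, with limma's unadjusted p of 0.047 and an adjusted p of 0.617. It was -0.41 without replicate 2 and -0.26 with control replicate 1 left out as well. These were the lowest and the highest array for Rpl8, so the smaller size follows from the choice of arrays.

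Rpl7a, at the surface of the large subunit, measured 11.77, 10.95, 11.99, 12.53 and 11.58 with miR-132 and 12.90, 12.05, 12.07, 12.14 and 11.99 in controls. Here miR-132 replicate 4 was above 4 of the 5 control arrays, while the other miR-132 arrays were at or below the lowest control. The difference was -0.47 ± 0.29 (SE), -0.26 without replicate 2 and -0.83 with the spike-ins as a covariate. Rpl27 measured 13.55, 12.64, 13.64, 13.89 and 12.88 with miR-132 and 14.22, 13.66, 13.43, 13.75 and 13.66 in controls, a difference of -0.42 ± 0.25 (SE) and -0.25 without replicate 2. In Rpl27, too, miR-132 replicate 4 was above 4 of the 5 controls, and replicates 2 and 5 were below all of them.

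Rpl19, which reaches across to the small subunit, measured 13.23, 12.42, 13.25, 13.40 and 13.00 with miR-132 and 13.61, 13.36, 13.25, 13.25 and 13.25 in controls. Its difference was -0.28 ± 0.18 (SE). Rpl38, needed for the translation of Hox mRNAs in mouse embryos, measured 9.33, 8.52, 9.44, 9.73 and 9.22 with miR-132 and 9.85, 9.45, 9.43, 9.39 and 9.62 in controls. Its difference was -0.30 ± 0.22 (SE), and both genes moved to -0.12 without replicate 2. With the spike-ins as a covariate Rpl19 was at -0.54 and Rpl38 at -0.64. Rpl10a, which forms the stalk by which the ribosome releases spent tRNA, measured 8.37, 7.96, 8.34, 8.37 and 8.36 with miR-132 and 8.61, 8.37, 8.36, 8.37 and 8.41 in controls. Apart from 7.96 on miR-132 replicate 2 and 8.61 on control replicate 1, its arrays lay between 8.34 and 8.41, and its difference was -0.14 ± 0.11 (SE). Without miR-132 replicate 2 the difference was -0.06.

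Rpl12 and Rpl32l made the dependence on a single array plain. Rpl12, at the base of the stalk that recruits elongation factors, measured 19.10, 17.26, 18.76, 19.03 and 18.58 with miR-132 and 19.04, 18.84, 18.84, 18.72 and 18.89 in controls. The difference of -0.32 ± 0.31 (SE) became 0.00 without replicate 2. Rpl32l, a close copy of Rpl32, measured 13.60, 11.81, 13.58, 13.94 and 13.19 with miR-132 and 13.84, 13.61, 13.57, 13.49 and 13.58 in controls. The difference of -0.39 ± 0.35 (SE) became -0.04. On replicate 2 both genes lay more than 1 below every other array.

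Rplp0, the core of that stalk, is often used as a reference gene in quantitative PCR. It measured 13.71, 13.52, 13.66, 13.66 and 13.65 with miR-132 and 13.66 on each of the 5 control arrays, with a difference of -0.02 ± 0.07 (SE) and a 95% interval from -0.18 to 0.14. The difference was 0.01 without miR-132 replicate 2 and 0.15 after quantile normalization. Rpl11, which binds and blocks the p53 regulator Mdm2 when ribosome assembly fails, measured 6.36, 6.12, 6.18, 6.18 and 6.18 with miR-132 and 6.18 on each control array. Its difference was 0.02 ± 0.05 (SE), with an interval from -0.10 to 0.14.

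Rpl39, at the exit of the tunnel for the growing peptide, measured 11.57, 11.03, 11.36, 11.87 and 11.59 with miR-132 and 11.70, 11.46, 11.24, 11.17 and 11.35 in controls, a difference of 0.10 ± 0.18 (SE). Rpl31, at the same exit, measured 5.64, 4.78, 5.41, 5.32 and 5.27 with miR-132 and 5.50, 4.94, 5.35, 5.10 and 5.24 in controls, a difference of 0.06 ± 0.16 (SE). Without replicate 2 they were at 0.21 and 0.18, while with the hybridisation controls as a covariate they turned to -0.10 and -0.04. The groups of both genes overlapped widely. Differences of the further protein-coding members of the class were -0.21 for Rpl35, -0.13 for Rpl37a, -0.11 for Rpl6, -0.05 for Rpl22, -0.04 for Rpl7 and -0.02 for Rpl4. Without replicate 2 Rpl35 turned to 0.04, Rpl37a to 0.06 and Rpl7 to 0.02, while Rpl6 was at -0.04, Rpl22 at -0.01 and Rpl4 at 0.00.

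Of the 3 tested members classed by symbol as paralogs, Rps4l and Rpl39l averaged lower and Rps27l higher. Rps27l, a paralog of Rps27 that p53 switches on, measured 8.85, 8.08, 8.23, 9.01 and 9.05 with miR-132 and 8.70, 8.28, 8.32, 8.27 and 8.46 in controls. Its miR-132 arrays lay on both sides of the control range, with 3 above and 2 below it. The difference was 0.24 ± 0.21 (SE, limma's adjusted p of 0.790), and 0.38 without replicate 2. The pseudogene Rpl6l, which is counted with the large subunit by its symbol, measured 11.42, 12.61, 11.94, 11.57 and 11.55 with miR-132 and 11.58, 11.63, 11.64, 11.37 and 11.58 in controls. It was the one tested member that was highest on miR-132 replicate 2, and its difference of 0.26 ± 0.22 (SE) was 0.06 without that array.

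The pseudogene Rps4l measured 5.70, 4.97, 4.74, 5.95 and 5.59 with miR-132 and 5.71, 5.44, 5.44, 5.44 and 5.71 in controls, a difference of -0.16 ± 0.22 (SE). It was lowest on miR-132 replicate 3, and the difference was 0.00 without that array. Rpl39l, a paralog known from testis, measured 5.48 to 5.95 with miR-132 and 5.54 to 6.09 in controls, a difference of -0.03 ± 0.11 (SE). Without miR-132 replicate 2 the difference was 0.02. Rpl10l, likewise known from testis, stayed below the level filter at 3.51 to 4.05 with miR-132 and 3.52 to 3.77 in controls. Rpl3l, which replaces Rpl3 in striated muscle, was also below it, at 3.97, 4.48, 3.83, 3.78 and 3.98 with miR-132 and 3.75 to 3.92 in controls. Its highest array, miR-132 replicate 2, was also the array with the highest mean of the 9 skeletal muscle markers, 13.44. The other miR-132 arrays started at 10.01, and the controls ranged from 10.19 to 13.20. The part of muscle in these values was not tested.

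A single array held most of the difference between the groups. On miR-132 replicate 2, 31 of 37 members had the lowest value of all 10 arrays (83.8%), against 26.9% of all genes tested. Their median distance from the control mean on that array was -0.40, against -0.13 for all genes. It was at least 0.5 below for 14 members and at least 1 below for 9. On that array 33 members lay below every control array, while 39.6% of all genes did. On the other miR-132 arrays the members' median distance was 0.02 for replicate 1, -0.07 for replicate 3, 0.09 for replicate 4 and -0.11 for replicate 5. These values lie on both sides of 0, and those of replicates 3 and 5, at -0.07 and -0.11, are on the lower side.

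In the controls, replicate 1 stood apart in the opposite direction. It had the highest value of all 10 arrays for 18 members (48.6%), against 11.1% of all genes, and was at or above the control mean for all 37. Its median distance from the control mean was 0.22, and the other controls were at -0.02, -0.06, -0.06 and -0.01. With miR-132 replicate 2 and control replicate 1 both left out, 14 members averaged lower and 21 higher, with a median of 0.01, against 0.02 for all genes. In that setting 44.7% of all genes averaged lower. Both arrays were chosen for their low and high member values, so a move upward follows from that choice. When miR-132 replicate 2 alone was left out, 8 members turned from lower to higher and 0 the other way. On that array 36 of the 37 members lay below the control mean, so for these a turn the other way was not possible.

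**Figure D2:**
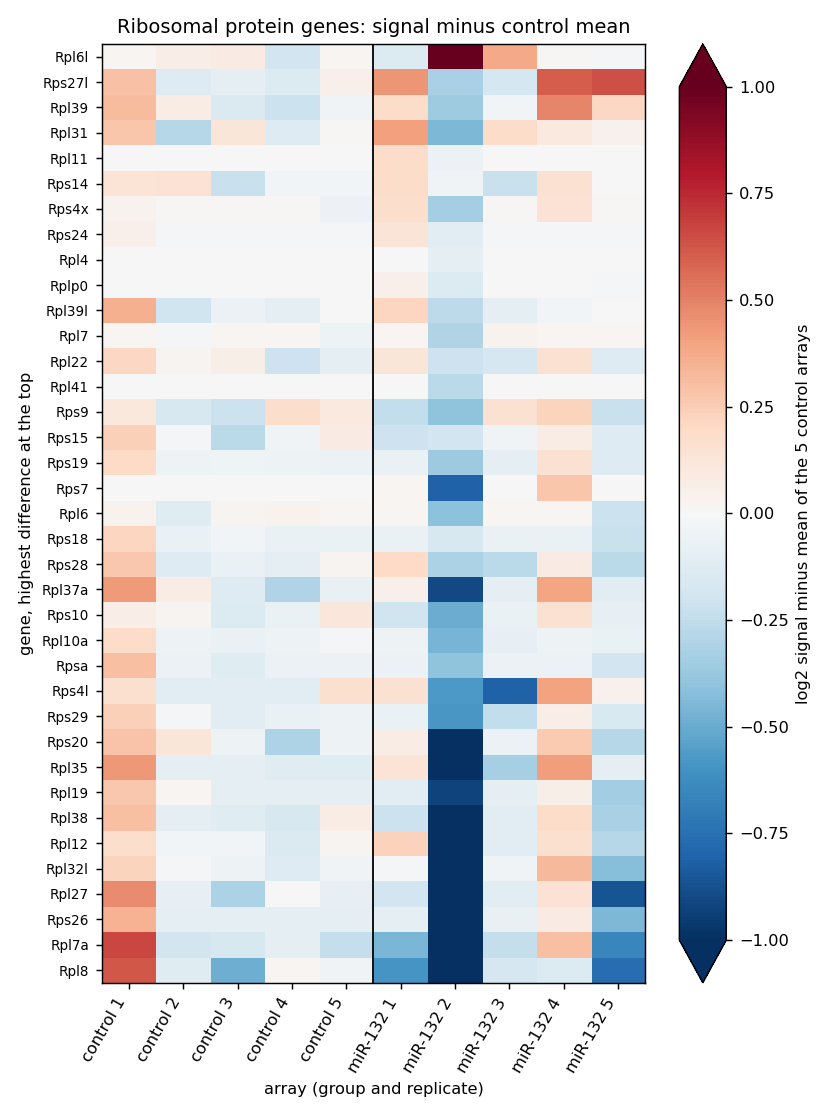
Signal of each of the 37 tested members minus the mean of the 5 control arrays, on the log2 scale, with genes in rows and the 10 arrays in columns. Blue cells are below the control mean and red cells above it, with the colour limited at 1 on either side. The column of miR-132 replicate 2 is blue for 36 members, and that of control replicate 1 holds no cell below the control mean.

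**Figure D3:**
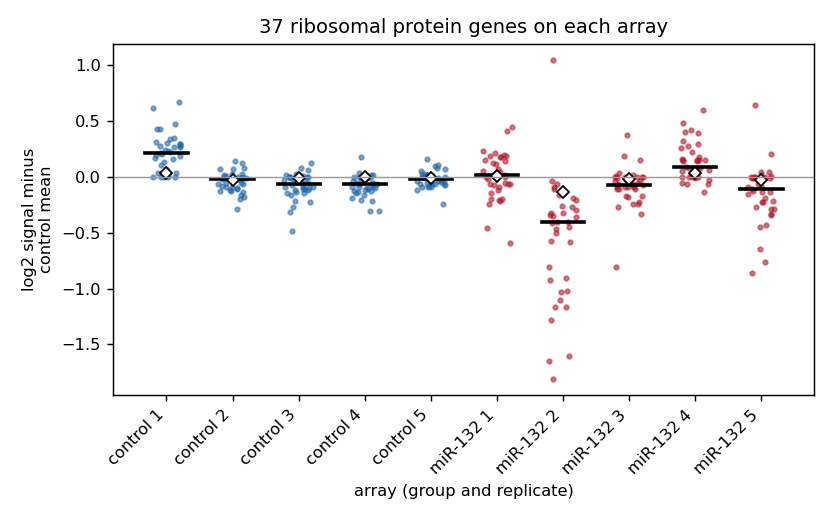
Distance of the 37 tested members from the mean of the 5 control arrays, on the log2 scale, by array. Each point is a gene, the line is the members' median and the diamond is the median of all genes tested. The line of miR-132 replicate 2 is at -0.40 with the diamond at -0.13, and the line of control replicate 1 is at 0.22.

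The signal of replicate 2 had the narrowest range, and the pattern was smaller when all arrays were given the same distribution. After a further quantile normalization, replicate 2 was lowest for 15 members, against 16.6% of all genes, and the members' median distance there was -0.13. In that setting 20 members averaged lower and 17 higher, with a median difference of -0.02, against 0.02 for all genes. Among all genes, 45.2% averaged lower there. Centring each array on its median instead gave 34 lower and 3 higher, with a median of -0.18, but it also moved the median of all genes to -0.08. With that centring 70.1% of all genes averaged lower. Fibroblast markers on replicate 2 averaged 14.52, against 14.84 to 15.24 on the controls and 14.45 on miR-132 replicate 3. Basal and wound keratinocyte markers averaged 12.86 there, against 12.92 to 13.69 on the controls, with miR-132 replicates 4 and 5 lower at 12.75 and 12.52. Skeletal muscle markers averaged 13.44 there, the highest of the 10 arrays. The part of cell makeup or of the narrow signal range in the members' values was not tested.

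Members varied more among miR-132 wounds than among control wounds. The standard deviation (SD) over 5 arrays had a median of 0.25 with miR-132 and 0.15 in controls, and was wider with miR-132 for 33 of 37 members (89.2%), against 68.1% of all genes. Without replicate 2 the median with miR-132 was 0.17 and 25 members remained wider (67.6%), close to the 60.5% of all genes. Rpl32l had SDs of 0.83 and 0.13, Rpl12 of 0.75 and 0.12 and Rps26 of 0.70 and 0.19. Rpl8, in contrast, varied alike in both groups, with 0.43 and 0.40.

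**Figure D4:**
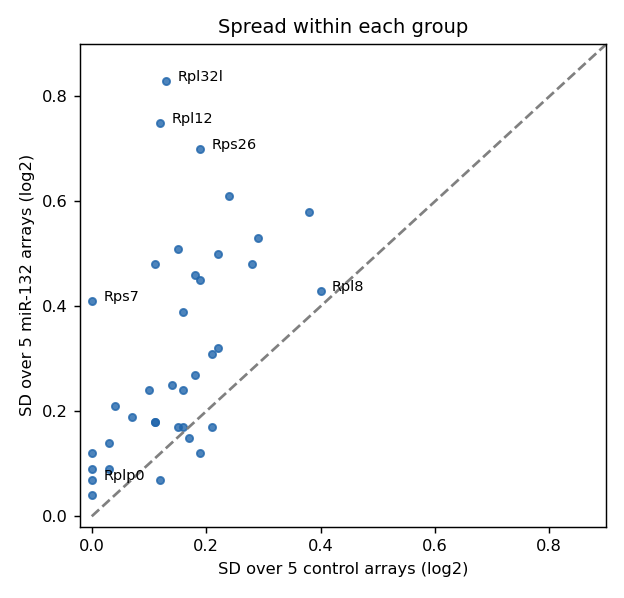
SD of each of the 37 tested members over the 5 miR-132 arrays against its SD over the 5 control arrays, both on the log2 scale, with the line of equal spread dashed. Of the points, 33 lie above the line, Rpl32l highest at 0.83, and Rps7 and Rplp0 stand at 0.00 for the controls.

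Several members repeated an identical value, to both printed decimals, on many arrays. At least 5 arrays carried the same value for 11 members (29.7%), against 3.24% of all genes, and at least 7 arrays did for 6 members (16.2%), against 2.12%. Rpl4 measured 19.21 on 9 arrays and 19.12 on miR-132 replicate 2. Rps7 measured 17.14 on all 5 control arrays and on miR-132 replicates 3 and 5, with 17.16, 16.33 and 17.42 on replicates 1, 2 and 4. Rpl11 repeated 6.18 on 8 arrays, Rplp0 13.66 on 7 and Rps24 8.41 on 7. The sixth is Rpl41, which repeated the upper limit of the signal, while the other repeated values lay below that limit. What makes the values repeat was not tested.

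The upper limit of the signal, just under 20 on the log2 scale, was reached by 9 of 390 member values, all of them of Rpl41, which encodes the smallest ribosomal protein. Rpl41 stood at the limit on all arrays except miR-132 replicate 2, at 19.66. A value at the limit is a lower bound, so the difference of -0.05 is not a measured size. Of all genes tested, 1.22% reached the limit on at least 1 array.

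Where a member had a further feature with its own gene alone, the sizes differed for some members. For 6 members the brightest feature carries the number of another chromosome than the gene's in its cluster name (Rpl12, Rpl27, Rpl31, Rpl35, Rpl41 and Rpl7a), although the numbers agree for 99.6% of such features in all. Ribosomal protein genes have many processed copies in the genome, and whether these features read the gene or a copy was not tested. The feature on the gene's own chromosome differed by -0.39 for Rpl7a (against -0.47), -0.25 for Rpl27 (against -0.42) and -0.02 for Rpl35 (against -0.21). That of Rpl41 differed by -0.05. Rps26, whose brightest feature lies on its own chromosome, had a second bright feature numbered for another chromosome, with a difference of -0.28. With the own-chromosome feature where there is one, the members' median was -0.11. On all these further features but the dim one of Rps26, with a difference of 0.38, miR-132 replicate 2 was the lowest array.

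The features that hold a ribosomal protein gene together with other genes behaved alike, with no gene named from them. Taken for the 37 genes concerned, 28 averaged lower and 7 higher, with a median of -0.08, and 1 had an unadjusted p under 0.05 (8.09% of all genes). Replicate 2 was lowest for 32 of them (86.5%). Without that array 17 averaged lower and 16 higher, with a median of 0.00. Among all genes tested, 53.6% averaged lower with all arrays and 47% without replicate 2.

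Other genes of translation averaged lower as well. The counts of lower genes in this and the next lists stand beside 53.6% of all genes tested. No gene of these lists passed limma's adjusted threshold. Of 10 genes on the elongation factor list, 8 averaged lower and 1 higher, with a median of -0.15. At an unadjusted p under 0.05, 2 were lower (5.61% of all genes). The median was -0.14 without replicate 2 and -0.08 after quantile normalization. The list also holds Eef2k (-0.11), a kinase, and Eef1e1 (-0.23), which are not elongation factors themselves. Eef1a1 stood at the upper limit of the signal on all 10 arrays and has no measured difference. Eef2, which moves the ribosome along the mRNA, measured 16.57, 16.65, 16.85, 16.74 and 16.33 with miR-132 and 17.42, 17.01, 16.85, 17.03 and 17.08 in controls. The highest miR-132 array equalled the lowest control array. The difference was -0.45 ± 0.12 (SE, n = 5 per group, limma's unadjusted p of 0.00379 and adjusted p of 0.596), and -0.46 without replicate 2. Eef1b2, a subunit of the factor that recharges the carrier of tRNA, was at -0.33 ± 0.14 (SE) and Eef1d, a subunit of the same factor, at -0.16 ± 0.08 (SE). Without replicate 2 Eef1b2 was at -0.23 and Eef1d at -0.16.

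Of 32 tested initiation factor genes, 27 averaged lower and 5 higher, with a median of -0.17, and 8 were lower at an unadjusted p under 0.05 (5.61% of all genes). The median was -0.11 without replicate 2 and -0.06 after quantile normalization. Eif6, which keeps free large subunits from joining small ones, differed by -0.69 ± 0.20 (SE). Eif3k and Eif3d, subunits of the factor that prepares the small subunit, differed by -0.57 ± 0.20 and -0.53 ± 0.15 (SE). Their groups did not overlap, as for 0.93% of all genes. Both genes were named for a small p, so the lack of overlap is not independent of that choice. Limma's adjusted p was 0.596 for each of these genes.

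Of 8 tested mRNAs outside the symbol rule that also begin with an oligopyrimidine tract, 7 averaged lower and 1 higher, with a median of -0.15 and -0.08 without replicate 2. After quantile normalization the median was -0.01. Fau, which encodes a ribosomal protein of the small subunit fused to a ubiquitin-like peptide, differed by -0.82 ± 0.32 (SE, limma's adjusted p of 0.596). Its groups did not overlap, as for 0.93% of all genes. Fau was named for a small p, so the lack of overlap is not independent of that choice. Fau was at -0.65 without replicate 2. Cct2, a chaperonin subunit, and Btf3, a factor that binds nascent peptides, were at -0.34 ± 0.18 and -0.25 ± 0.14 (SE). Of the paralogs whose symbols the rule leaves out, Rpl7l1 was at -0.15 and Rpl22l1 at 0.23, both lowest on replicate 2.

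Assembly factors process ribosomal RNA and join it with the proteins. Of 56 tested assembly factors, 41 averaged lower and 14 higher, with a median of -0.11, which was -0.04 without replicate 2. After quantile normalization the median was -0.02. At an unadjusted p under 0.05 stood 7, all lower (5.61% of all genes on that side), among them Rrp12 (-0.34 ± 0.10, SE), which exports precursor subunits, the nucleolar helicase Ddx21 (-0.41 ± 0.15) and Sbds (-0.28 ± 0.11), which helps to release Eif6. Of 13 genes of RNA polymerase I, which transcribes ribosomal RNA, 9 averaged lower and 4 higher, with a median of -0.08 and 0 at an unadjusted p under 0.05. Its largest subunit Polr1a was at -0.16, the initiation factor subunit Taf1a at -0.12 and Twistnb, another subunit, at 0.27.

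Of 15 tested genes around mTORC1 and Myc, 13 averaged lower and 2 higher, with a median of -0.23, and 5 were lower at an unadjusted p under 0.05 (5.61% of all genes). The list holds antagonists beside the kinase and its subunits, so its median gives no direction for the pathway. Pathway activity was not tested. Mtor, the kinase itself, differed by -0.28 ± 0.08 (SE, limma's unadjusted p of 0.00894 and adjusted p of 0.596). Its groups did not overlap, as for 0.93% of all genes. Mtor, too, was named for a small p, so the lack of overlap is not independent of that choice. Rptor, the subunit that binds substrates, was at -0.23 ± 0.08 and Mxd1, an antagonist of Myc, at -1.14 ± 0.41 (SE). Without replicate 2 Mtor was at -0.29 and the list at -0.19. After quantile normalization the list was at -0.16. Of 8 genes of the p53 response, which free ribosomal proteins can start, 6 averaged lower and 2 higher, with a median of -0.11. Cdkn1a, the p53 target that halts the cell cycle, was at -0.94 ± 0.33, Mdm2 at -0.23 ± 0.12 and Ccng1, another target, at 0.52 ± 0.27 (SE).

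**Figure D5:**
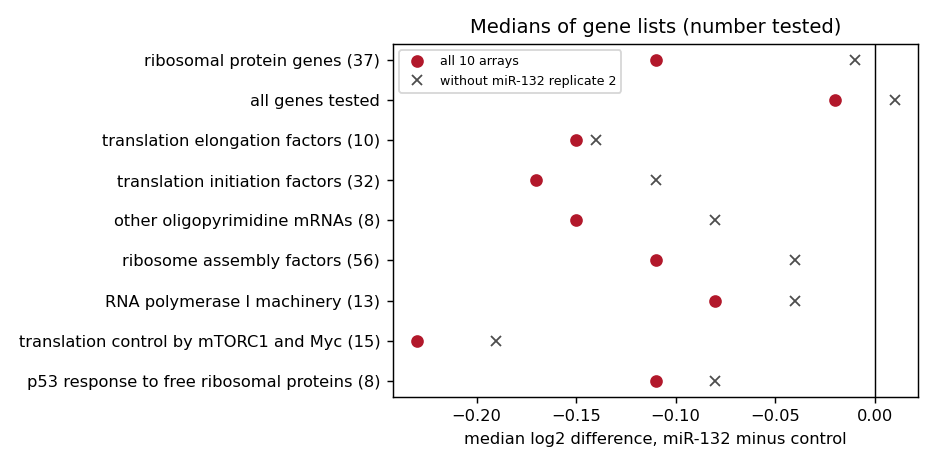
Median log2 difference of each gene list, treated minus control wounds, with the number of genes tested in brackets. Filled points use all 10 arrays and crosses leave out miR-132 replicate 2. The ribosomal protein genes move from -0.11 to -0.01 and all genes tested from -0.02 to 0.01. The elongation factor list moves from -0.15 to -0.14 and the genes of mTORC1 and Myc from -0.23 to -0.19. Initiation factors move from -0.17 to -0.11, other oligopyrimidine mRNAs from -0.15 to -0.08 and assembly factors from -0.11 to -0.04. RNA polymerase I genes move from -0.08 to -0.04 and p53 response genes from -0.11 to -0.08.

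Markers of cell types were compared in the same way, with 0 past adjustment. Among all genes tested, 53.6% averaged lower. Of 9 basal and wound keratinocyte markers, 8 averaged lower with a median of -0.20, and their mean per array was 12.52 to 13.14 with miR-132 and 12.92 to 13.69 in controls. All 9 neutrophil markers averaged lower, with a median of -0.52, at 10.62 to 11.27 with miR-132 and 10.08 to 12.42 in controls. The 9 skeletal muscle markers averaged lower (median of -0.51), and the 7 adipocyte markers averaged higher (median of 0.24), at 7.88 to 10.96 with miR-132 and 7.95 to 10.22 in controls. Macrophage markers were evenly split, with 5 lower and 5 higher. Of 7 fibroblast markers 5 averaged lower and 2 higher (median of -0.20), of 7 endothelial markers 5 lower and 1 higher (median of -0.05), and of 4 tested T and B cell markers 1 lower and 3 higher (median of 0.12). Without replicate 2 the medians were -1.0 for muscle, -0.33 for neutrophils, -0.25 for keratinocytes, -0.07 for fibroblasts, -0.08 for endothelium, 0.26 for adipocytes, 0.13 for T and B cells and 0.00 for macrophages. For each of these lists the ranges of the groups overlapped, and their part in the values of the ribosomal protein genes was not tested.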

How the data were processed

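The authors deposited 1 log2 value per array and feature with 2 decimals, made with Affymetrix Expression Console 1.4 and RMA, per the submitters' processing notes. The log2 scale is not stated in the labels and was taken from the range of the values. The features' genome build was not given in the sources used here. Columns were matched to samples by accession, with 0 unmatched, and titles gave the group and replicate.

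Of 72688 features, 31216 had 1 gene, 1534 several and 39938 none named here. Of the features counted as 1 gene, 612 list symbols that RefSeq gives as synonyms of the same gene. Of several features of a gene the one with the highest mean was kept. Genes with a mean above 4.17, the median over all features, were tested with limma 3.58.1 in R 4.3.3 (lmFit, eBayes with an intensity trend, all 10 arrays, no covariates, two-sided, Benjamini-Hochberg over 17635 genes, threshold 0.05). The fit was also run on simulated arrays with the means and spreads of these data. The number of arrays limits the precision.

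Named members are the 10 lower and 10 higher with the smallest p, as far as there are as many, and members set by symbol. Of each other list the 3 genes with the smallest p are named. Rpl12, Rpl32l and further members were described after their values were seen. The members and lists were chosen with earlier results of these data known. Levels are not compared between genes. Alternatives changed 1 choice at a time, except where 2 are named together.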

Additional observations from a re-analysis of the deposited data

Results flagged for a closer look

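Of 46 sets of 5 arrays tested, 23 named members in each group, 12 held an array whose gap to the nearest other array exceeded Dixon's limit of 0.71 of the whole range. For normally distributed values without ties, chance gives about 1 in 20 such sets. Some sets here hold repeated values or values at the upper limit, as for Rps26 and Rpl41, and that rate does not apply to them. Members measured on the same array are also not independent, so the count is not compared with that rate.

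Control replicate 1 stood above the other controls in 7 sets. It measured 6.72 for Rps18 (others 6.44 to 6.48), 12.90 for Rpl7a (11.99 to 12.14), 14.36 for Rps29 (14.02 to 14.11) and 16.33 for Rps26 (15.90 on each other control). It measured 8.61 for Rpl10a (8.36 to 8.41), 12.96 for Rpsa (12.54 to 12.60) and 6.46 for Rps19 (6.20 to 6.22).

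On miR-132 replicate 2, Rpl10a was low at 7.96 (other miR-132 arrays 8.34 to 8.37) and Rpl41 at 19.66, where the others stood at the upper limit of the signal. Rpl3l was high there, at 4.48 (3.78 to 3.98). Rpl6l was low on control replicate 4, at 11.37 (11.58 to 11.64), and Rpl11 was high on miR-132 replicate 1, at 6.36 (6.12 to 6.18).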

How the results depend on the processing

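The count of members called stayed at 0 in all 25 settings, and the count of all genes called at 0 except without miR-132 replicate 3, where 52 genes passed, all lower and 0 of them members (range 0 to 52 when single arrays were left out). When single arrays were left out, the median difference of the members that never reached the upper limit, -0.12, had its lowest value at -0.17, with miR-132 replicate 4 left out, and its highest at -0.01, with replicate 2 left out. It was 0.02 without miR-132 replicates 2 and 5, -0.01 after quantile normalization, -0.06 with array weights, -0.18 after median centring and -0.20 once the hybridisation spike-ins entered as a covariate. The members at an unadjusted p under 0.05, 1 with all arrays, numbered 0 with the level filter at the 75th percentile, with array weights and without miR-132 replicates 2 and 5. They numbered 2 with quantile normalization, 5 with those spike-ins as a covariate, 2 of 74 with shared features included, and 0 to 3 when single arrays were left out. All genes at that p, 1426, numbered 2635 with no level filter, 933 with the filter at the 75th percentile, and from 949 (without control replicate 5) to 2482 (without miR-132 replicate 3). The cause of these moves was not tested, apart from the number of genes that each filter leaves. The labels give both groups the same replicate numbers. Same-numbered arrays did not vary together (correlations of -0.03 to 0.16), so they were not paired. With the replicate block the median was -0.12 and 0 members had an unadjusted p under 0.05. The settings with features on the gene's own chromosome, with shared features, with quantile normalization but no replicate 2, and without both replicate 2 and control replicate 1 were chosen after seeing the data.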
